A study of Mus musculus with 8 samples.

Results

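The mRNA response of NIH3T3 cells to Hedgehog (Hh) ligand was compared between cells that carry an Esrrb expression vector and cells that carry the empty vector. For each gene, the response with the empty vector was subtracted from the response with the Esrrb vector on the log2(FPKM + 0.1) scale, and this difference of responses is called the interaction here. FPKM counts the sequenced fragments of a transcript relative to its length and to all fragments mapped in that sample. The genes described are the 9479 with an FPKM of at least 1 in all 8 samples, of 20195 annotated genes with a value in every sample. A gene whose locus is missing in 1 condition is thereby left out. Among genes with a different response, Inhba lay just inside this limit with a lowest FPKM of 1.10, and Sec31b just outside with 0.998.

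NIH3T3 is a line of fibroblasts from mouse embryos in which added Hh ligand activates the pathway. NIH3T3-pc3.1 cells were transfected with empty pcDNA3.1 (Zeo+) and NIH3T3-Esrrb cells with the same vector carrying Esrrb, and both were selected with 150 ug/ml zeocin. Established cells of 2 independent transfections were pooled, so the effect of Esrrb and other differences between the pooled lines cannot be told apart. Treatment of confluent cells lasted 48 h, in DMEM that lacked phenol red and held 5% newborn calf serum. Hh-CM was conditioned by HEK293, a line from human embryonic kidney, made to secrete the Sonic Hedgehog N-terminus, and it was used at a dilution of 1 to 100. Medium of HEK293 cells lacking the transgene, diluted alike, served as the vehicle. The 4 groups of 2 samples are Control (empty vector, vehicle), Hh-CM (empty vector, Hh-CM), Esrrb (Esrrb vector, vehicle) and Esrrb+Hh-CM (Esrrb vector, Hh-CM).

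In the Hh pathway, ligand binds the receptor Ptch1 and relieves its inhibition of Smoothened, after which Gli transcription factors switch on targets that include Gli1 and Ptch1 themselves. Gas1 is a cell surface co-receptor for the ligand, and Hh signaling is known for driving growth of mesenchymal and neural progenitor cells. Esrrb is an orphan nuclear receptor, best known from pluripotent stem cells, that binds DNA elements related to those of the estrogen receptors. In fibroblasts, small leucine-rich proteoglycans such as osteoglycin, asporin and fibromodulin are secreted proteins that bind collagen and growth factors.

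With Control replicate 1 set to 1, sequencing depth was lowest in Esrrb+Hh-CM replicate 2 (0.747) and highest in Hh-CM replicate 2 (1.49). The table of Esrrb replicate 1 stood apart: it repeated 4339 identifiers (136 to 147 in the other 7), and 8080 of its numbered loci had the number and position of a locus of Hh-CM replicate 2 (at most 106 in any other pair of samples). Results are therefore also given without these 2 samples. The Esrrb gene was listed at 0 FPKM in all 4 samples that carry its vector, and at 0.0281 and 0.0203 in the Hh-CM samples. In these samples the vector is therefore known from the labels and not from these values. The study showed Esrrb protein in the transfected cells by Western blot. Esrra, a related receptor gene, was listed at 0 in all 8 samples, and a listed 0 here does not show that a gene is absent. Fibroblast markers were present, with all 10 listed genes among the members and a summed FPKM of 5733 to 5793 in Control, 6134 to 6598 in Hh-CM, 5974 to 6101 in Esrrb and 6401 to 6489 in Esrrb+Hh-CM samples. The lists of endothelial, epithelial, adipocyte, muscle, neural and pluripotent cell markers held no member, and that of macrophage markers held 1 of 8, with a summed FPKM of 4.47 to 8.90 over the samples. Of the macrophage, endothelial and epithelial markers, those listed at 0 in all samples were Tyrobp (macrophages), Kdr and Emcn (endothelium) and Epcam, Krt5, Krt18 and Cldn4 (epithelium). The other markers of these lists were above 0 in at least 1 sample. The summed FPKM of the endothelial markers was 0.111 to 0.157 in Control and 1.19 to 1.44 in Hh-CM samples. It was 0.0812 to 0.0881 in Esrrb and 1.23 to 1.67 in Esrrb+Hh-CM samples. In these bulk samples, fewer cells of a type and less RNA per cell cannot be told apart.

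The pathway targets Gli1 and Ptch1, and Gli2, rose with Hh-CM in both lines, and their differences of responses did not pass the test. Gli1, the transcription factor used as the readout of the pathway, had an FPKM of 0.0262 ± 0.00643 in Control and 27.4 ± 0.908 in Hh-CM samples (SD, n = 2 each). In the line with the Esrrb vector it had 0.0716 ± 0.0487 in Esrrb and 34.6 ± 0.178 in Esrrb+Hh-CM samples (SD, n = 2 each). The Control values of Gli1 exclude it from the members, and its interaction of -0.08 had a 95% interval from -0.78 to 0.62 (limma adjusted p = 0.912). Its values in vehicle were near or below the added 0.1, which limits both responses, so this interaction does not show that they were equal. Ptch1 measured 2.44 and 2.98 FPKM in Control, 37.0 and 37.0 in Hh-CM, 3.08 and 2.76 in Esrrb and 43.9 and 47.7 in Esrrb+Hh-CM samples. Its response was 3.73 with the empty vector and 3.93 with the Esrrb vector on the log2 scale, and the interval of the difference was -0.18 to 0.58 (limma adjusted p = 0.552). For Gli2, the main activator among the Gli factors, the responses of 1.33 and 1.24 differed by -0.10 (95% interval -0.37 to 0.18, limma adjusted p = 0.692). Of the 17 members in the list of Hh pathway genes, 6 passed for a rise in each line, 2 for a fall with the empty vector and 1 for a fall with the Esrrb vector. Gas1 was the only one that passed for the interaction (5.88%, against 1.21% of all members). Gas1 measured 281 and 273 FPKM in Control, 128 and 128 in Hh-CM, 275 and 276 in Esrrb and 96.1 and 87.0 in Esrrb+Hh-CM samples. The vehicle samples of the 2 lines overlapped, and both Esrrb+Hh-CM samples lay below both Hh-CM samples. The fall was larger by 0.48 on the log2 scale with the Esrrb vector (SE 0.0720, limma adjusted p = 0.0488), and it passed in 2 of the 8 fits that left out 1 sample, those without an Esrrb+Hh-CM sample. Its adjusted p over the 8 fits ranged from 0.0189 to 0.137.

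Across all members, 115 passed an adjusted p of 0.05 for the interaction, which is 1.21% of the members, against 137 (1.33%) of all 10294 genes tested. Of these, 68 (0.717%) had an interaction above 0 and 47 (0.496%) had one below 0. An interaction above 0 means a larger rise or a smaller fall with the Esrrb vector, or a rise with it and a fall with the empty vector. The 2 responses themselves passed for 18.2% of members with the empty vector and 23.7% with the Esrrb vector. An unadjusted p below 0.05 was found for 1765 members, 18.6%. The median interaction of all members was 0.00, and 91.5% lay between -0.5 and 0.5. Across the 9479 members the responses of the 2 lines had a Pearson correlation of 0.637, a description of genes that share the same libraries, and their SD was 0.358 with the empty vector and 0.424 with the Esrrb vector. The median absolute log2 difference between the 2 samples of a group was smallest in Hh-CM (0.0732) and Control (0.0738), then Esrrb (0.0791), and largest in Esrrb+Hh-CM (0.0949).

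**Figure D1:**
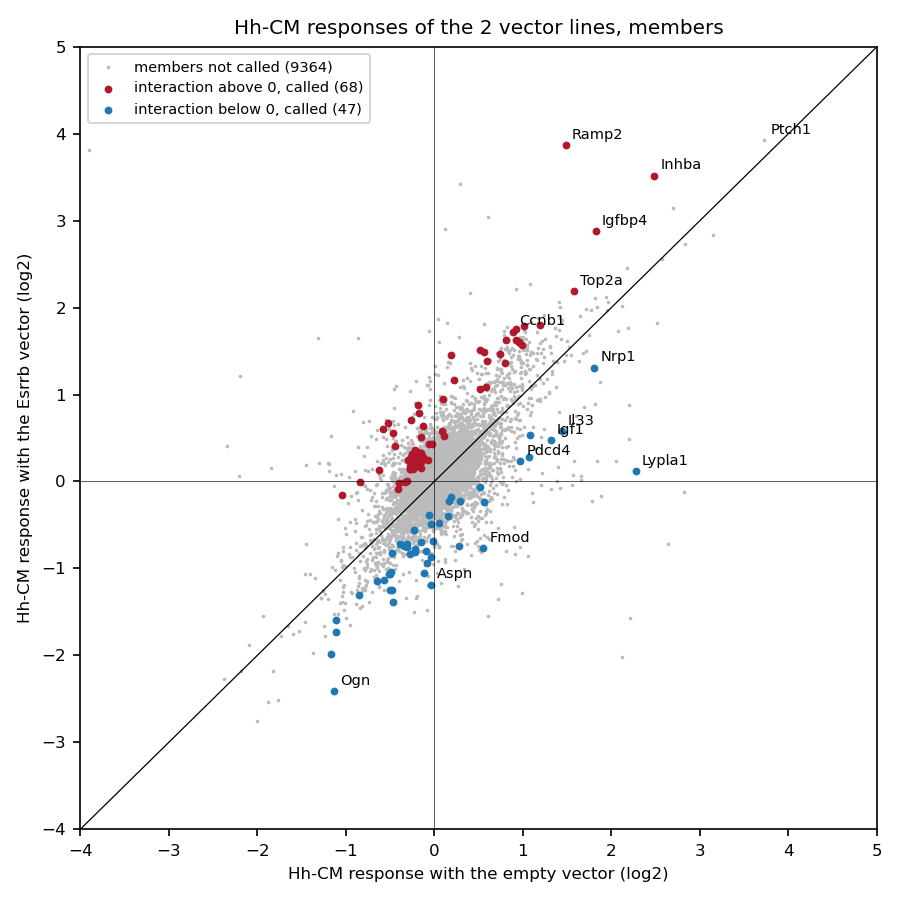
Hh-CM response on the log2 scale with the empty vector (horizontal axis) against that with the Esrrb vector (vertical axis) for the members, with the line of equal responses; 2 members lie outside the range drawn. Red points are the 68 called members with an interaction above 0 and blue points the 47 below 0; Ogn and Fmod lie below the line, Igfbp4 and Inhba above it, and Ptch1 close to it.

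Many of the 115 calls were lost when 1 sample of any group was left out. Of the 115 genes, 28 were still called without Control replicate 1, 30 without Control replicate 2, 40 without Hh-CM replicate 1 and 26 without Hh-CM replicate 2. Without Esrrb replicate 1 the number was 30, without Esrrb replicate 2 it was 21, and without Esrrb+Hh-CM replicates 1 and 2 it was 36 and 64. Without both Esrrb replicate 1 and Hh-CM replicate 2, 17 members were called, 2 of them above 0, and of the 115 only Aspn and Lypla1 remained called. These fits reuse samples by which the 115 were chosen, so a kept sign is not independent evidence. All 115 kept the sign of their interaction in each of these fits. Of them, 17 were called in all 8 fits without 1 sample, and 33 were called in none of the 8. The 33 include Kif4, Plk1, Ncapd2, Hspa9, Ndufb10, Mrpl2, Nhp2, Rps15, Rpl36a, Dkk3 and Npnt, which are described below. These 17 were Aspn, Ogn, Fmod, Postn, Mfap4, Pdcd4, Il33, Pdk4, Olfml2b, Cd24a, Ddit3, Shmt1, Lypla1, Mif, Pigk, Rit1 and Taf15, of which Mif, Pigk, Rit1 and Taf15 are outside the rule for named genes and were named after their values were seen. The calls of Igf1, Hp, Id2, Gapdh and Tubb2c, also described below, were lost in most of the 8 fits.

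Ogn, Aspn, Fmod, Postn, Mfap4 and Wisp2, which encode proteins of the extracellular matrix, had an interaction below 0. Ogn and Wisp2 fell with Hh-CM in both lines and by more with the Esrrb vector. Aspn and Postn passed for a fall with the Esrrb vector only. Fmod had opposite responses, and Mfap4 rose in both lines and by less with the Esrrb vector. Of 43 members in the list of small leucine-rich proteoglycans and matricellular proteins, 6 passed with an interaction below 0 and 1 with one above 0, against 0.496% and 0.717% of all members. The median interaction of the list was -0.14, with 13 of 43 above 0, against 4750 of 9479 members. The 10 fibroblast markers had a median interaction of -0.18, with 2 of 10 above 0 and none called, and the part of this shift in the result for the matrix genes was not tested. Genes of this list had been described with these data before, so its direction is not independent evidence. Without both Esrrb replicate 1 and Hh-CM replicate 2, the median of the list was -0.09, and Aspn alone of these 7 remained called. Postn, Wisp2 and Mfap5 lie outside the rule for named genes and were named after their values were seen. Ogn (osteoglycin), on mm9 chr13:49703440-49719869, measured 136 and 136 FPKM in Control, 63.9 and 59.8 in Hh-CM, 93.3 and 91.9 in Esrrb and 18.5 and 16.2 in Esrrb+Hh-CM samples. No groups overlapped. Hh-CM lowered Ogn to 0.455 of vehicle with the empty vector and to 0.188 with the Esrrb vector, an interaction of -1.28 (SE 0.0982, limma adjusted p = 0.00700).

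Aspn (asporin), which lies close to Ogn on mm9 chr13:49639812-49662926, did not show a passing response with the empty vector. Its FPKM was 252 and 258 in Control, 251 and 245 in Hh-CM, 131 and 125 in Esrrb and 54.8 and 57.1 in Esrrb+Hh-CM samples. The response was -0.04 with the empty vector (limma adjusted p = 0.575) and -1.19 with the Esrrb vector (limma adjusted p = 4.13e-05). The interaction of -1.15 (SE 0.0571, limma adjusted p = 0.000876) also passed without both Esrrb replicate 1 and Hh-CM replicate 2, at -1.13 (limma adjusted p = 0.0284). Fmod (fibromodulin) measured 11.4 and 12.04 FPKM in Control, 16.3 and 18.3 in Hh-CM, 3.09 and 3.14 in Esrrb and 1.79 and 1.805 in Esrrb+Hh-CM samples. The responses were opposite, a rise of 0.55 with the empty vector and a fall of 0.76 with the Esrrb vector on the log2 scale, and the interaction was -1.32 (SE 0.111, limma adjusted p = 0.00874). In vehicle, Fmod was already lower with the Esrrb vector, by 1.88 on the log2 scale (limma adjusted p = 0.000191).

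Postn (periostin, a matricellular protein of growing and healing connective tissue) measured 543 and 555 FPKM in Control, 554 and 529.5 in Hh-CM, 707 and 715 in Esrrb and 434 and 447 in Esrrb+Hh-CM samples. The Control and Hh-CM samples overlapped, while with the Esrrb vector Hh-CM lowered it to 0.620 of vehicle, an interaction of -0.67 (SE 0.0512, limma adjusted p = 0.00700). Mfap4, a microfibril-associated protein, rose with Hh-CM in the empty-vector line, from 28.5 ± 0.771 to 59.9 ± 0.776 FPKM, and went from 10.9 ± 0.265 to 13.3 ± 0.145 with the Esrrb vector (SD, n = 2 each). Its interaction was -0.79 (SE 0.0599, limma adjusted p = 0.00700). Wisp2, a member of the CCN family of matricellular proteins, fell in both lines and by 0.45 more with the Esrrb vector (limma adjusted p = 0.0294). Mfap5, another microfibril protein, was the gene with the opposite sign. It fell by 0.40 on the log2 scale with the empty vector, and in the Esrrb-vector line it measured 118 ± 0.219 FPKM in vehicle and 117 ± 0.488 with Hh-CM (SD, n = 2 each, interaction 0.38, limma adjusted p = 0.0419). None of the 37 members of the list of collagens and collagen processing passed, and their median interaction was -0.07.

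**Figure D2:**
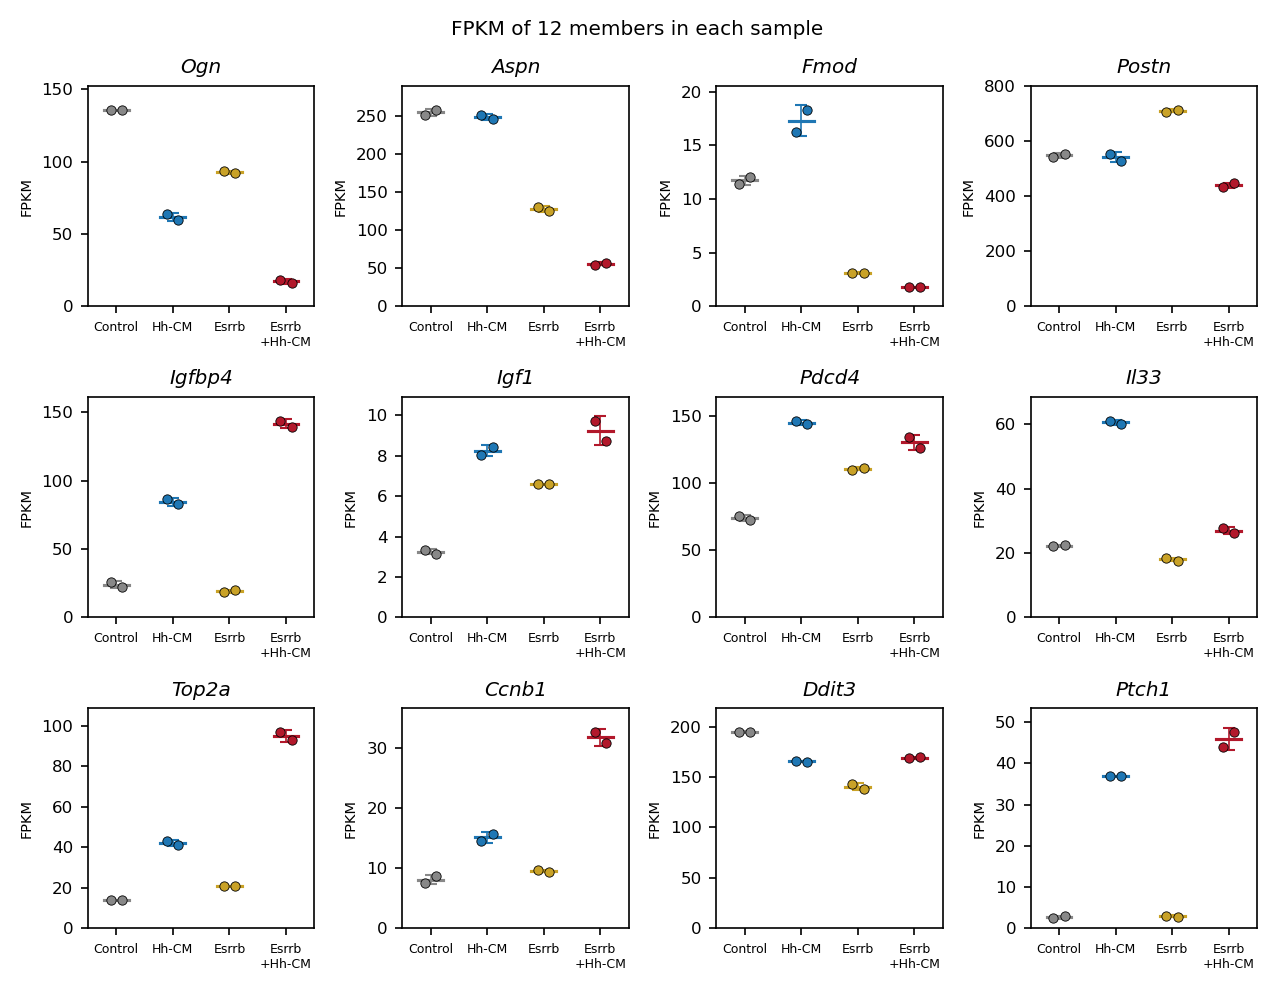
FPKM (vertical axes, from 0, scales differ between panels) of 12 members in the 8 samples, with points for samples, a horizontal line for the group mean and bars for 1 SD (n = 2). Ogn, Aspn and Fmod are lowest in the Esrrb+Hh-CM samples, Igfbp4, Top2a and Ccnb1 highest there, and the Hh-CM samples of Pdcd4 and Il33 lie above the Esrrb+Hh-CM samples.

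Genes of mitosis rose with Hh-CM in both lines, and 11 of them rose by more with the Esrrb vector. Of 56 members in the list of mitosis and cytokinesis genes, 11 passed with an interaction above 0, against 0.717% of all members, and none below. The median response was 0.98 with the empty vector and 1.53 with the Esrrb vector, and the median interaction was 0.59, with 55 of 56 above 0. Of the members, 55 passed for a rise with the empty vector and 56 with the Esrrb vector. Relative to the mean of the Control samples, the median level of the list on the log2 scale was 0.95 and 0.99 under Hh-CM with the empty vector. With the Esrrb vector it was 0.37 and 0.30 in vehicle and 1.92 and 1.85 under Hh-CM. The groups did not overlap, and the Esrrb+Hh-CM samples were the highest. The median interaction of the list was between 0.53 and 0.61 when each sample was left out in turn, and 0.61 without both Esrrb replicate 1 and Hh-CM replicate 2. The number called was less stable: it was 0 without Control replicate 2, without Hh-CM replicate 2 or without Esrrb replicate 2, 1 without Esrrb replicate 1, 2 without Control replicate 1 or Hh-CM replicate 1, 3 without Esrrb+Hh-CM replicate 1 and 7 without Esrrb+Hh-CM replicate 2. It was also 0 without both Esrrb replicate 1 and Hh-CM replicate 2.

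The 11 genes were Ccna2, Ccnb1, Cdk1, Plk1, Kif2c, Kif4, Tpx2, Top2a, Racgap1, Ube2c and Ncapd2, of which Ccna2, Cdk1, Tpx2, Racgap1, Ube2c and Ncapd2 are named for this count after their values were seen. Top2a, the topoisomerase that untangles chromosomes before they separate, measured 13.96 and 14.15 FPKM in Control, 43.2 and 41.2 in Hh-CM, 20.8 and 20.7 in Esrrb and 97.1 and 92.8 in Esrrb+Hh-CM samples. This was a 2.99-fold rise with the empty vector and a 4.56-fold rise with the Esrrb vector (interaction 0.61, SE 0.0603, limma adjusted p = 0.0156). Ccnb1 (cyclin B1, partner of Cdk1 at mitotic entry) measured 7.54 and 8.69 FPKM in Control, 14.5 and 15.8 in Hh-CM, 9.70 and 9.36 in Esrrb and 32.7 and 30.8 in Esrrb+Hh-CM samples. Its rises were 1.86-fold and 3.31-fold (interaction 0.83, SE 0.120, limma adjusted p = 0.0433). Kif4, a chromosome-bound kinesin, had the largest interaction of the list, 0.99, with a rise from 2.76 ± 0.314 to 3.99 ± 0.101 FPKM with the empty vector and from 2.72 ± 0.223 to 7.95 ± 0.0202 with the Esrrb vector (SD, n = 2 each, limma adjusted p = 0.0488). The kinase Plk1 (0.77) and the microtubule-depolymerizing kinesin Kif2c (0.82) had interactions of similar size. The loci of Ccna2 and Ube2c, an enzyme of the anaphase-promoting complex pathway, were longer in 1 sample each than in the other 7.

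Promoters of 4 of these genes and of Asns, described below, are shown because letters known from cell cycle and amino acid response promoters lie close to their starts. Each line gives the 120 bases before the RefSeq start on GRCm38.p6, 5′ to 3′ on the strand of the gene. Capitals mark the CCAAT box, the cell cycle homology region TTTGAA and the amino acid response element TGATGNAA on either strand. Read on the other strand, the box is ATTGG and the homology region is TTCAAA.
Top2a, chr11:99024190-99024309, minus strand: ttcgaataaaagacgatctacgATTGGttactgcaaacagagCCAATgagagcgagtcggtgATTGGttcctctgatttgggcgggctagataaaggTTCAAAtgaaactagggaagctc
Ube2c, chr2:164769809-164769928, plus strand: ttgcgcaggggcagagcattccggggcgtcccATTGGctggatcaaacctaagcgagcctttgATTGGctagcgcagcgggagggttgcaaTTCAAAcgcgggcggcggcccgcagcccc
Cdk1, chr10:69352913-69353032, minus strand: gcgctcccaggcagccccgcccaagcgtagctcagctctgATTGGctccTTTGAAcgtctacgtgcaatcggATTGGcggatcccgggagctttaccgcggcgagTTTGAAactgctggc
Ccnb1, chr13:100786487-100786606, minus strand: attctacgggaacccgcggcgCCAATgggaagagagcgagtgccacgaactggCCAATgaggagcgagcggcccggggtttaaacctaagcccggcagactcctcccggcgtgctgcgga
Asns, chr6:7693210-7693329, minus strand: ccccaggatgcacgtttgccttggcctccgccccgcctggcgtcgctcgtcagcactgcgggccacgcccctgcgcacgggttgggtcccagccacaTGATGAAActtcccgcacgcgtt
The marked letters do not overlap each other in these windows. RefSeq promoters were found for 87 of the 115 called members. In the 250 bases before the start, CCAAT was found for 45 of the 87 (51.7%) against 37.5% of 27025 genes, the letters TTTGAA for 14 (16.1%) against 18.3%, and the letters TGATGNAA for 2 (2.30%) against 3.91%. Of the 11 mitosis genes, 9 held CCAAT and 5 held the homology region. The letters GACCACCCA of a Gli site and TCAAGGTCA of an estrogen-related receptor element were in none of the 87, against 0.255% and 0.422% of all genes. These are counts of letters and not of bound sites.

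None of the 56 members in the list of DNA replication and S phase genes passed for the interaction, though most passed for a rise in the Esrrb-vector line. Their median interaction was 0.47, with 55 of 56 above 0, and 37 had an unadjusted p below 0.05. The median response was 0.43 with the empty vector and 0.95 with the Esrrb vector, and 31 and 50 members passed for a rise in the 2 lines. Leaving out each sample in turn gave a median interaction between 0.39 and 0.48. Of 19 tubulin and stathmin genes, Tubb2c, a beta tubulin also named Tubb4b, rose from 54.9 ± 0.763 to 82.6 ± 0.975 FPKM with the empty vector and from 71.8 ± 2.18 to 152 ± 5.97 with the Esrrb vector (SD, n = 2 each, interaction 0.50, limma adjusted p = 0.0269).

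**Figure D3:**
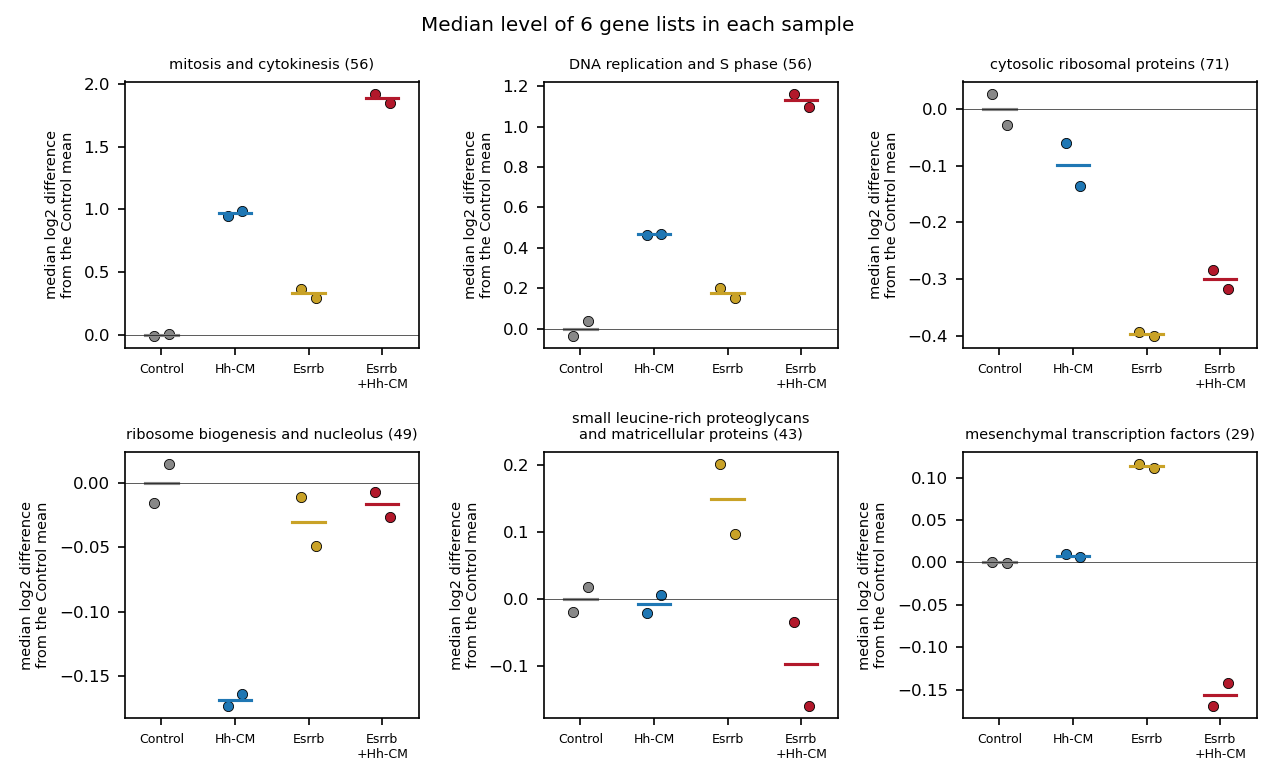
Median log2(FPKM + 0.1) of the members of 6 gene lists in each sample, as the difference from the mean of the Control samples (vertical axes, scales differ between panels), with the number of members in brackets and lines at the group means. Mitosis and replication genes are highest in the Esrrb+Hh-CM samples, and ribosomal protein genes are lowest in the Esrrb samples.

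In the lists of protein synthesis, all genes that passed for the interaction had one above 0. Of 71 members that encode cytosolic ribosomal proteins, 5 passed with an interaction above 0 (Rpl31, Rpl36a, Rpl37, Rplp1 and Rps15, with Rpl36a named after its values were seen), against 0.717% of all members, and the median interaction was 0.18, with 64 of 71 above 0. Their median response was -0.10 with the empty vector, where 16 passed for a fall, and 0.09 with the Esrrb vector, where 14 passed for a rise. Among all 9479 members, 18.2% passed in either direction with the empty vector and 23.7% with the Esrrb vector, where 1321 passed for a rise. For the ribosomal protein genes, the median difference between the vectors in vehicle was -0.39 (Esrrb vector minus empty vector). Rpl31 fell from 1709 ± 8.56 to 1475 ± 44.7 FPKM with the empty vector and rose from 1221 ± 35.2 to 1459 ± 20.4 with the Esrrb vector (SD, n = 2 each, interaction 0.47, limma adjusted p = 0.0255). Ribosomal protein genes have many near-identical pseudogenes that can take part of their reads, so single values are uncertain. Without 1 sample, Rpl31 was called in 2 of 8 fits, Rpl37 and Rplp1 in 1 each, and Rpl36a and Rps15 in 0. In the list of ribosome biogenesis, Nhp2 (0.57, a protein of small nucleolar particles) and Pes1 (0.42, needed for the large subunit) passed. These 2 are 4.08% of its 49 members, against 1.21% of all members. Of the 49, 45 were above 0, with a median of 0.19.

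Of 42 members in the list of the unfolded protein response and endoplasmic reticulum chaperones, 4 passed, each with opposite responses in the 2 lines and an interaction above 0, against 0.717% of all members. Without 1 sample, Ddit3 was called in all 8 fits, Nars in 7, Mthfd2 in 5 and Asns in 1. Ddit3 (CHOP, a transcription factor of the stress response) measured 194 and 195 FPKM in Control, 166 and 165 in Hh-CM, 143 and 138 in Esrrb and 168 and 169.8 in Esrrb+Hh-CM samples. It fell by 0.23 with the empty vector and rose by 0.27 with the Esrrb vector, an interaction of 0.50 (SE 0.0429, limma adjusted p = 0.00896). The levels under Hh-CM were close in the lines, and the Esrrb samples were the lowest. The other 3 serve amino acid and folate metabolism rather than protein folding: Mthfd2, a mitochondrial folate enzyme (interaction 0.54), Nars, which charges tRNA with asparagine (0.50), and Asns, which makes asparagine (0.41, limma adjusted p = 0.0395). Asns measured 96.8 and 100.0 FPKM in Control, 84.8 and 83.5 in Hh-CM, 88.9 and 89.0 in Esrrb and 104 and 98.2 in Esrrb+Hh-CM samples, so that Control and Esrrb+Hh-CM samples overlapped. The median interaction of the list was 0.10, with 29 of 42 above 0. Shmt1, the cytosolic enzyme that links serine and folate metabolism, is in no list and had an interaction of 0.96 (SE 0.0867, limma adjusted p = 0.0114), with 6.38 ± 0.245 FPKM in vehicle and 5.65 ± 0.00523 under Hh-CM with the empty vector, and 4.12 ± 0.0429 and 7.19 ± 0.137 with the Esrrb vector (SD, n = 2 each).

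Among heat shock genes, Hsf1, the transcription factor of the heat shock response, fell by 0.47 with the empty vector and rose by 0.56 with the Esrrb vector (interaction 1.02, limma adjusted p = 0.0241). Hspa9, the mitochondrial Hsp70, had an interaction of 0.32 (limma adjusted p = 0.0465). Gapdh, a glycolytic enzyme and the gene to which the study scaled its qPCR, had an interaction of 0.50 (SE 0.0579, limma adjusted p = 0.0255). It fell by 0.17 with the empty vector and rose by 0.33 with the Esrrb vector on the log2 scale. In 80 members of the respiratory chain and citrate cycle, only Ndufb10, a subunit of complex I, passed (1.25%), with 0.32, and the median was 0.15. Mrpl2, a protein of the mitochondrial ribosome, was the only call (1.47%), with 0.41, among 68 members with a median of 0.05. Both shares lie near the 1.21% called among all members.

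**Figure D4:**
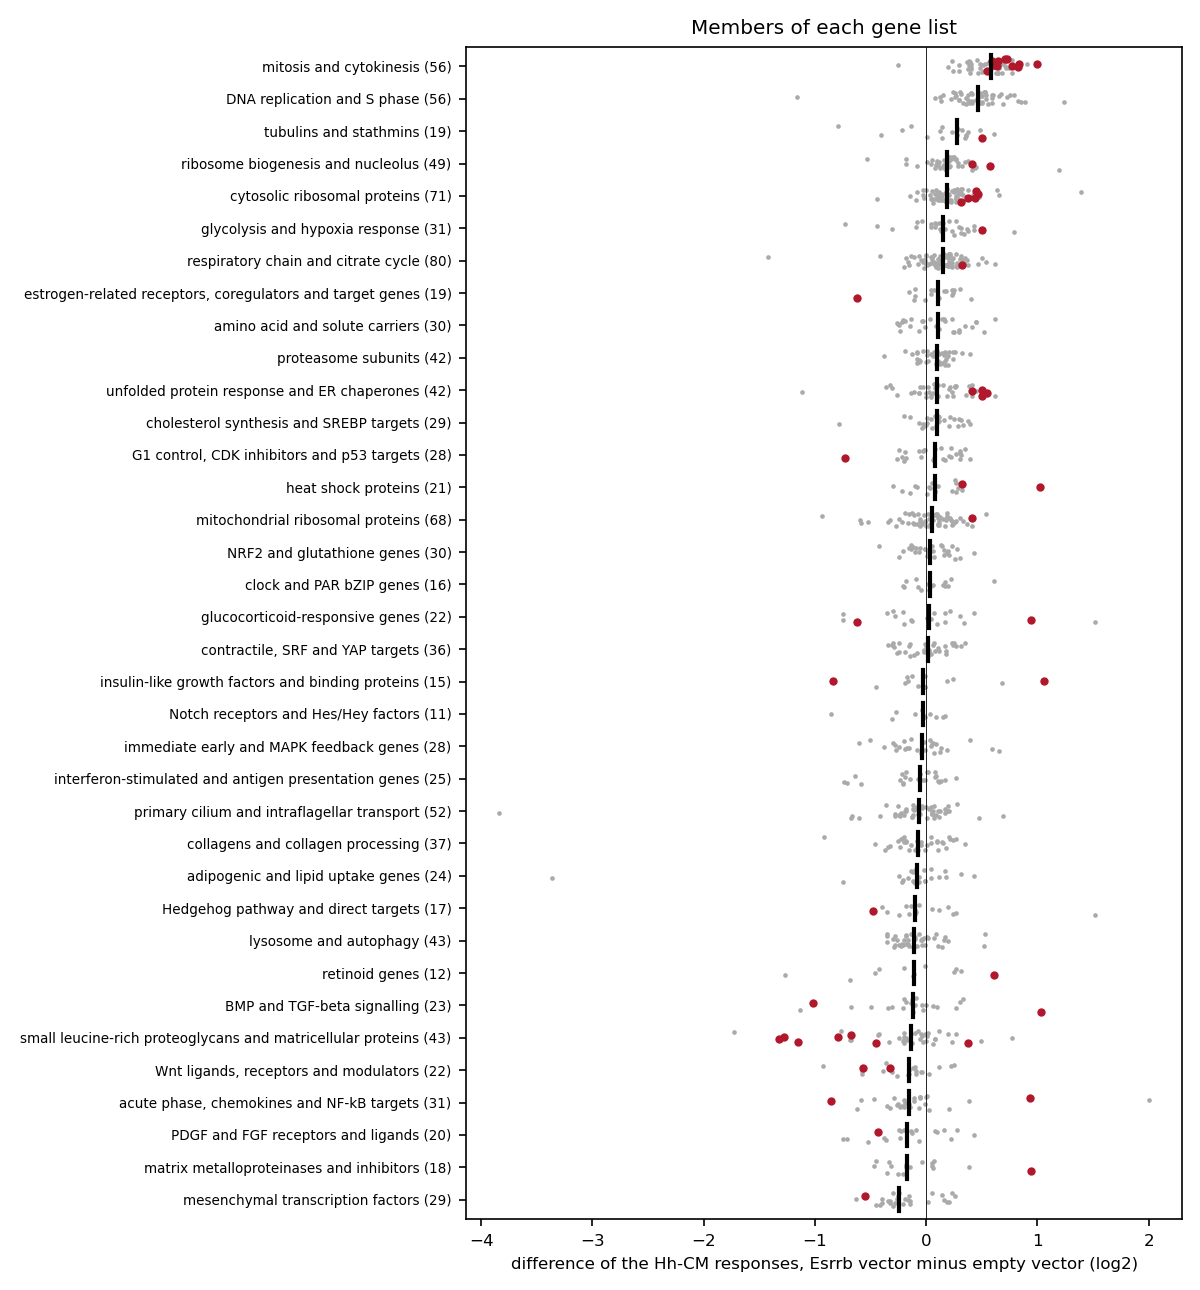
Interaction (horizontal axis, log2) of each member of the lists with at least 10 members, with the number of members in brackets, red points for called members and a black bar for the median. Mitosis genes have the highest median, 0.59, and mesenchymal transcription factors the lowest, -0.25.

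In the list of insulin-like growth factors and binding proteins, 2 of 15 members passed (13.3%, against 1.21% of all members), 1 in each direction. Igfbp4, which binds insulin-like growth factors, measured 25.9 and 22.1 FPKM in Control, 86.8 and 82.7 in Hh-CM, 18.3 and 19.99 in Esrrb and 144 and 139.5 in Esrrb+Hh-CM samples. All 4 vehicle samples were low and the Esrrb+Hh-CM samples highest. The rise was 3.54-fold with the empty vector and 7.38-fold with the Esrrb vector (interaction 1.06, SE 0.122, limma adjusted p = 0.0255), and the adjusted p ranged from 0.0148 to 0.0854 when each sample was left out, passing in 2 of 8 fits, those without a Control sample. Igf1, a ligand of this family, rose 2.49-fold with the empty vector and 1.39-fold with the Esrrb vector. Its FPKM was 3.36 and 3.15 in Control, 8.06 and 8.44 in Hh-CM, 6.604 and 6.615 in Esrrb and 9.74 and 8.74 in Esrrb+Hh-CM samples (interaction -0.84, SE 0.108, limma adjusted p = 0.0340). It was higher with the Esrrb vector in vehicle, by 1.00 on the log2 scale (limma adjusted p = 0.00143), while under Hh-CM the difference of 0.16 did not pass (limma adjusted p = 0.201). None of the other 13 members of this list of 15 passed.

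In the list of BMP and TGF-beta signaling, 2 of 23 members passed (8.7%, against 1.21% of all members), Inhba above 0 and Id2 below. The median interaction of the list was -0.12. Inhba, the activin A subunit, rose 5.61-fold with the empty vector and 11.5-fold with the Esrrb vector. Its Hh-CM and Esrrb+Hh-CM samples lay at 15.4 and 15.5, and at 14.7 and 15.1 FPKM, while the Esrrb samples, at 1.10 and 1.33, were below the Control samples, at 2.66 and 2.69 (interaction 1.03, SE 0.136, limma adjusted p = 0.0368). The locus of Inhba differed in length between samples. Id2, an inhibitor of basic helix-loop-helix factors and a target of BMP signaling, had 9.94 ± 0.927 FPKM in vehicle and 12.1 ± 0.523 under Hh-CM with the empty vector, and fell from 11.2 ± 0.668 to 6.70 ± 0.463 with the Esrrb vector (SD, n = 2 each, interaction -1.02, limma adjusted p = 0.0337). The secreted Wnt inhibitor Sfrp1 fell from 75.2 ± 3.11 to 50.6 ± 1.44 with the empty vector and from 198 ± 6.08 to 89.6 ± 0.645 with the Esrrb vector (SD, n = 2 each, interaction -0.57, limma adjusted p = 0.0242). Dkk3, a secreted protein of the Dickkopf family, had -0.33. These were the 2 calls among 22 members of the Wnt list (9.09%, against 1.21% of all members). Of these 22, 4 were above 0, with a median of -0.15. Kitl, the ligand of the receptor Kit, fell by 0.31 with the empty vector and by 0.75 with the Esrrb vector (limma adjusted p = 0.0255). Maf, a basic leucine zipper factor, fell by 0.55 more with the Esrrb vector, at a locus that differed in length between samples. It was the only call among 29 mesenchymal transcription factors (3.45%, against 1.21% of all members). Of these 29, 8 were above 0, with a median of -0.25.

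The genes that passed in the list of acute phase, chemokine and NF-kB target genes, Il33 and Hp, had interactions of opposite sign. Il33, a nuclear cytokine of stromal cells, measured 22.2 and 22.3 FPKM in Control, 61.1 and 60.1 in Hh-CM, 18.4 and 17.6 in Esrrb and 27.6 and 26.2 in Esrrb+Hh-CM samples. It rose 2.71-fold with the empty vector and 1.496-fold with the Esrrb vector (interaction -0.86, SE 0.0631, limma adjusted p = 0.00648). Hp (haptoglobin, which binds free hemoglobin) rose 1.48-fold and 2.82-fold, from 36.8 ± 1.16 to 54.5 ± 0.0622 and from 37.7 ± 4.10 to 106 ± 9.65 FPKM (SD, n = 2 each, interaction 0.93, limma adjusted p = 0.0412). Of the 31 members of this list, 2 passed (6.45%, against 1.21% of all members) and 6 were above 0, with a median of -0.16. Pdk4, the kinase that restrains pyruvate dehydrogenase and a known target of estrogen-related receptors and glucocorticoids, measured 72.1 and 74.0 FPKM in Control, 33.9 and 33.5 in Hh-CM, 65.6 and 66.2 in Esrrb and 19.3 and 20.1 in Esrrb+Hh-CM samples. It fell in both lines, to 0.463 of vehicle with the empty vector and 0.300 with the Esrrb vector (interaction -0.62, SE 0.0521, limma adjusted p = 0.00874). Pdk4 was the only call among 19 estrogen-related receptor, coregulator and target genes (5.26%, against 1.21% of all members). Tgm2, a transglutaminase induced by retinoids, had 0.61 (limma adjusted p = 0.0234) and rose in both lines.

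Of the genes that the study chose for qPCR on these samples, 14 were members and 7 passed for the interaction (50%, against 1.21% of all members). This is not independent evidence, since they were chosen for their responses. The 7 that passed were Pdcd4, Igf1, Ogn, Top2a, Tubb2c, Hp and Igfbp4. Pdcd4, an inhibitor of translation initiation, measured 75.9 and 72.5 FPKM in Control, 147 and 144 in Hh-CM, 109.99 and 112 in Esrrb and 135 and 126 in Esrrb+Hh-CM samples. It rose 1.96-fold with the empty vector and 1.18-fold with the Esrrb vector (interaction -0.73, SE 0.0619, limma adjusted p = 0.00874). In vehicle it was higher with the Esrrb vector by 0.58 (limma adjusted p = 0.00143), and under Hh-CM the difference of -0.16 did not pass (limma adjusted p = 0.0579). The other 7 did not pass. Hsd11b1, which makes active glucocorticoid, rose from 3.70 ± 0.0986 to 77.9 ± 1.49 and from 2.56 ± 0.928 to 152 ± 20.9 FPKM (SD, n = 2 each). Its interaction of 1.51 had a 95% interval of 0.71 to 2.32 (limma adjusted p = 0.0913), and it passed at 1.88 without Esrrb replicate 1 (limma adjusted p = 0.0224). Saa3, an acute phase protein, had 0.38 (interval 0.24 to 0.53, limma adjusted p = 0.0529), and Smoc2 had -0.67 (interval -1.18 to -0.17, limma adjusted p = 0.173). The intervals were -0.74 to -0.02 for Sfrp2, 0.03 to 0.43 for Stmn1, -0.16 to 0.56 for Hoxd8 and -0.23 to 0.24 for Dpt.

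By the pattern of the 2 responses, which share no sample with each other but both enter the interaction, the 68 genes above 0 held 20 that rose in both lines and by more with the Esrrb vector, 19 that passed for a rise with the Esrrb vector only, 7 that passed for a fall with the empty vector only, 21 with opposite responses and 1, Pigk, that fell by less with the Esrrb vector. The 47 below 0 held 22 that fell in both lines and by more with the Esrrb vector, 12 that passed for a fall with the Esrrb vector only, 6 that rose in both and by less with the Esrrb vector (Capn1, Igf1, Il33, Mfap4, Nrp1 and Pdcd4), 3 that passed for a rise with the empty vector only (Lypla1, Plagl1 and Scara3) and 4 with opposite responses (Fmod, Cdh11, Abhd4 and Arsb). In vehicle, 38 of the 68 were lower with the Esrrb vector and 9 higher, while under Hh-CM 4 were lower and 50 higher. Among all members, 6.17% were lower and 10.5% higher in vehicle, and 6.4% were lower and 12.8% higher under Hh-CM. Of the 47, 17 were lower and 18 higher in vehicle, and 33 were lower and 5 higher under Hh-CM. The interaction is the vector difference under Hh-CM minus that in vehicle, so the choice of genes by its sign largely fixes these directions. Genes named here for counts of 6 or fewer outside the other rules were named after their values were seen.

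Among called members, the largest interaction in each direction, Lypla1 and Ramp2, belonged to a locus whose extent differed between groups. Members that were not called reached -4.14 and 7.72, with a wide spread between replicates. Lypla1 (a lysophospholipase, interaction -2.15, limma adjusted p = 8.21e-05) measured 178 and 177 FPKM in the Hh-CM samples and between 36.3 and 49.3 in the other 6. Its assembled locus was 90.0 kb long in the Hh-CM samples, where it took in the neighbouring gene Tcea1, and 38.8 kb in the others. Ramp2 (a receptor activity-modifying protein, interaction 2.38, limma adjusted p = 0.0234) measured 57.2 and 55.8 FPKM in the Esrrb+Hh-CM samples, where the locus was 13.2 kb long and took in Vps25, and at most 11.0 FPKM in the others, where it was 1.92 kb. The same held for Smg1 (a kinase of nonsense-mediated decay, interaction 1.27, limma adjusted p = 0.0221), whose locus of 125 kb took in Arl6ip1 in the Esrrb+Hh-CM samples only, against 112 kb elsewhere. The FPKM of these 3 genes can therefore not be told apart from that of their neighbours. Of the 115 genes, 97 (84.3%) had loci that overlapped by at least 0.95 in every pair of samples, against 89.5% of all members.

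**Figure D5:**
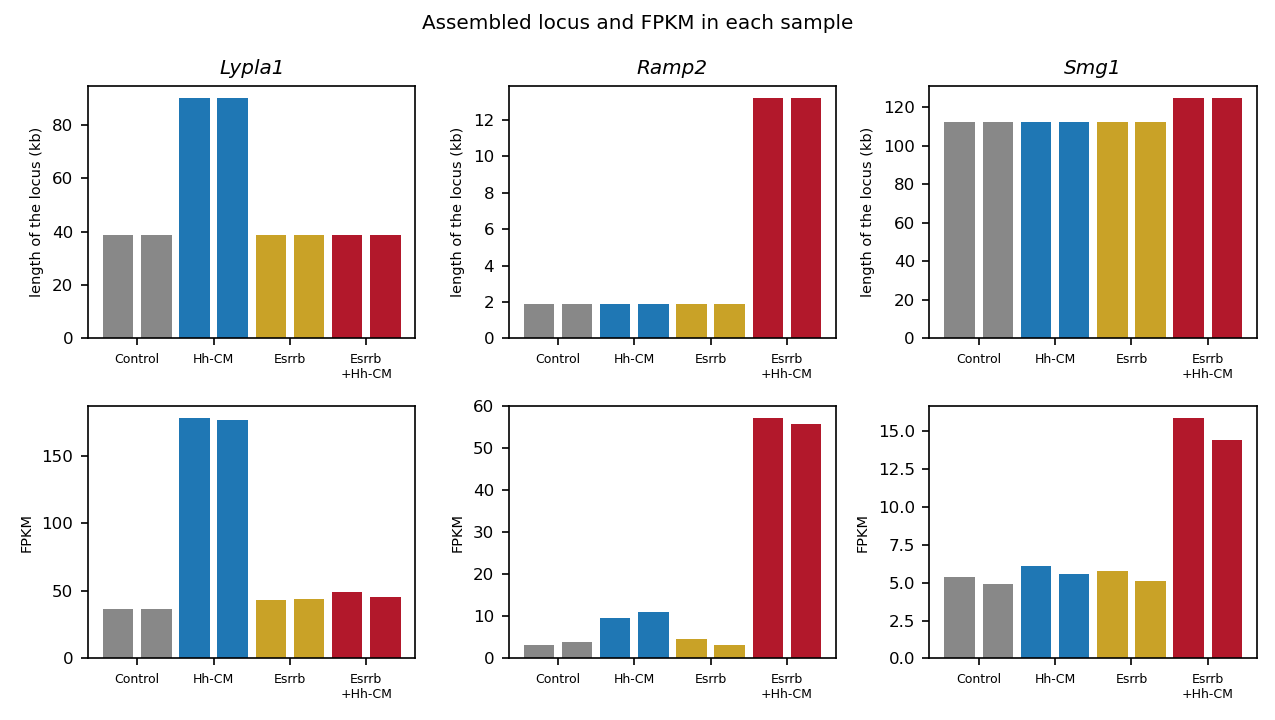
Length in kb of the assembled locus (top) and FPKM (bottom) of Lypla1, Ramp2 and Smg1 in the 8 samples, with 1 bar per sample coloured by group and axes from 0. The locus is longest, and the FPKM highest, in the 2 Hh-CM samples for Lypla1 and in the 2 Esrrb+Hh-CM samples for Ramp2 and Smg1.

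Apart from these 3 and genes described above, the 12 largest interactions in each direction with 1 sign in all 16 choices of 1 sample per group included those of Fxc1 (1.20, a chaperone of the mitochondrial inner membrane import), Rnf141 (1.19, a RING finger protein), D19Bwg1357e (1.07) and Gm10653 (0.97) above 0. Below 0 they were those of Olfml2b (-0.94, a secreted olfactomedin-like protein), Ablim1 (-0.92, an actin-binding LIM protein), Cd24a (-0.85, a surface glycoprotein), Casp12 (-0.83, a caspase) and Npnt (-0.82, an integrin ligand of basement membranes). Olfml2b measured 14.3 and 14.8 FPKM in Control, 13.1 and 13.7 in Hh-CM, 26.4 and 25.4 in Esrrb and 12.1 and 12.8 in Esrrb+Hh-CM samples, so that the Esrrb samples were the highest (SE 0.0744, limma adjusted p = 0.00747). Cd24a fell from 20.9 ± 0.513 to 10.8 ± 0.536 FPKM with the Esrrb vector and had 34.4 ± 1.35 in Control and 32.5 ± 0.174 in Hh-CM samples (SD, n = 2 each). The loci of Fxc1, Ablim1, Cd24a and Casp12 differed in length between samples. Of the 37 function lists, 15 held no called member, among them cholesterol synthesis (29 members, median interaction 0.09), contractile genes (36, 0.01), immediate early genes (28, -0.03), interferon-stimulated genes (25, -0.06), primary cilium (52, -0.07) and lysosome (43, -0.11). With 1.21% of all members called, lists of this size can often hold no call, so this does not show that their responses were equal. Of the 115 called genes, 65 were in no list. The other 50 were among 1158 members in at least 1 list, while 115 of all 9479 members were called.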

How the data were processed

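RNA-Seq (stranded mRNA libraries) of 8 NIH3T3 samples was used, with groups and replicate numbers taken from the labels. The authors trimmed reads with FASTX-Toolkit, aligned the rest to mm9 (TopHat2 with Bowtie2) and assembled each sample with Cufflinks, versions not given in the sources used here. The deposited values are FPKM, with no counts. Depth was estimated from the bounds that Cufflinks gives for each FPKM.

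Cufflinks numbers loci anew in each sample. Each locus was given to the GENCODE gene of the mm9 genome (NCBIM37) that it overlapped by at least 0.5 of their joint length, and FPKM were summed per gene. The test covered 10294 genes, those that reached an FPKM of 1 in 2 or more samples, and was made with limma 3.58.1 (R 4.3.3) on log2(FPKM + 0.1), with 4 group means, a variance trend and Benjamini-Hochberg adjustment over all 10294. Fold changes on this scale understate those of low genes. An exact permutation test of 2 against 2 samples cannot go below p = 0.333, so p-values come from limma. The study calls the 2 samples of a condition biological replicates. Whether they came from separate transfections is not given in the sources used here, and p-values measure only the spread between these samples. The script was tested on simulated data. Python 3.11 tables used pandas and matplotlib.

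Members, lists and tests were chosen with earlier results of these data known. Lists were matched by symbol or RefSeq synonym. Named are the qPCR genes of the study, the 12 largest called interactions in each direction with 1 sign in all 16 choices of 1 sample per group, up to 4 called genes per list, and Gli1, Ptch1, Hhip, Gli2 and Esrrb as checks (Hhip was listed at 0 in all samples), though not every gene that this rule names is reported here. The motifs other than the Gli site and the estrogen-related receptor element, and 2 alternatives, were chosen after seeing the data. Alternatives were pseudocounts of 1 and 0.001, no FPKM filter, only members fitted, the replicate block, a fit with no variance trend, rescaled FPKM, the largest locus per gene, an overlap of 0.8, only loci identical in all samples, an interaction of at least 1, and each sample left out.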

Additional observations from a re-analysis of the deposited data

Results flagged for a closer look

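The Hh-CM response differed between the vector lines by the test of the difference itself for 115 members. Of those named, the interactions below 0 on the log2 scale were Lypla1 (-2.15), Fmod (-1.32), Ogn (-1.28), Aspn (-1.15), Id2 (-1.02), Olfml2b (-0.94), Ablim1 (-0.92), Il33 (-0.86), Cd24a (-0.85), Igf1 (-0.84), Casp12 (-0.83), Npnt (-0.82), Mfap4 (-0.79), Pdcd4 (-0.73), Pdk4 (-0.62), Sfrp1 (-0.57), Maf (-0.55), Gas1 (-0.48), Kitl (-0.44) and Dkk3 (-0.33). The named interactions above 0 that reached at least 0.6 were Ramp2 (2.38), Smg1 (1.27), Fxc1 (1.20), Rnf141 (1.19), D19Bwg1357e (1.07), Igfbp4 (1.06), Inhba (1.03), Hsf1 (1.02), Kif4 (0.99), Gm10653 (0.97), Shmt1 (0.96), Hp (0.93), Ccnb1 (0.83), Kif2c (0.82), Plk1 (0.77), Top2a (0.61) and Tgm2 (0.61). The smaller ones above 0 were Nhp2 (0.57), Mthfd2 (0.54), Ddit3 (0.50), Gapdh (0.50), Nars (0.50), Tubb2c (0.50), Rpl31 (0.47), Rps15 (0.45), Rpl37 (0.44), Pes1 (0.42), Mrpl2 (0.41), Asns (0.41), Rplp1 (0.37), Hspa9 (0.32) and Ndufb10 (0.32). Values for Lypla1, Ramp2 and Smg1 belong to loci that take in a neighbouring gene in 1 group only.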

How the results depend on the processing

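With the replicate block, the number of members called for the interaction fell from 115 to 29 (14 above 0). Between groups, deviations from the group mean of like-numbered samples correlated by -0.121 to 0.0664 across the members. Such correlations cannot show whether like-numbered samples share a transfection or culture. Of the 115 genes, 29 kept their call and 115 their sign with the block. The number was 56 with no variance trend, 179 with only identical loci in all samples (fewer genes were then tested, 5607), and 13 with an interaction of at least 1 in size. Leaving out each sample in turn gave 29 to 133 calls for the interaction, 892 to 1721 for the Hh-CM response with the empty vector (1721 with all samples) and 1453 to 1935 for that with the Esrrb vector (2246). Without both Esrrb replicate 1 and Hh-CM replicate 2 the numbers were 17, 589 and 1049, and with identical loci 1446 members were called for the response with the Esrrb vector. The share above 0 of the interaction calls was 59.1% with all samples, 42.4% with no FPKM filter (85 calls), 28.6% without Hh-CM replicate 2, 37.5% without Hh-CM replicate 1, 40.0% and 37.9% without Esrrb replicates 1 and 2, 70.7% without Esrrb+Hh-CM replicate 2 and 11.8% (2 of 17) without both Esrrb replicate 1 and Hh-CM replicate 2; the cause was not tested. Pseudocounts of 1 and 0.001, fitting only members, rescaled FPKM, the largest locus, an overlap of 0.8 and loci overlapping by at least 0.95 gave 113 to 167 calls. Rescaling moved the interaction by -0.005 and the responses by -0.03 and -0.04 on average, and changed the sign of the interaction in 0 of the 115 genes, of which Rpl37 lost its call. For the named genes, no alternative turned the sign of a call, 398 alternative values lost the call and 6 gained it (Saa3 in 4, Smoc2 and Hsd11b1 in 1 each). The 2 samples per group limit the calls, since a lone sample is assumed to vary like the other groups.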

Other observations

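Of the genes tested, 815 are no member, and 22 of these 815 passed for the interaction, against 137 (1.33%) of all 10294 genes tested. In 19 of the 22, both samples of at least 1 group were listed at 0 FPKM. A listed 0 does not show that a gene is absent, and whether these loci were lost in the assembly was not tested. Fdft1, the squalene synthase of cholesterol synthesis, was listed at 0 in both Esrrb samples and lay between 31.0 and 35.9 FPKM in the other 6. Il4i1 was listed at 0 in both Control samples and between 27.3 and 42.4 in the other 6. Gps2, a subunit of a corepressor complex, was listed at 0 in both Esrrb+Hh-CM samples and between 14.7 and 15.7 in the others, and Cuedc2 at 0 in both Hh-CM samples and between 34.5 and 72.4 in the others. Sec31b fell from between 129 and 146 FPKM to 0.998 and 1.38 in the Esrrb+Hh-CM samples, the only group in which its locus did not take in the neighbouring gene Ndufb8. These genes were named after their values were seen.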
